A study of Mus musculus with 9 samples.

Results

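Matrix metalloproteinases are zinc-dependent proteases that are made as inactive precursors and, once activated outside the cell or at its surface, cut collagens, laminins, elastin and many other matrix and signalling proteins. Tissue inhibitors of metalloproteinases, the Timp proteins, bind the active site of these enzymes and block them. In muscle, both groups take part in the remodelling of the matrix around fibres during regeneration and in the movement of myoblasts. The 10 genes described here are 7 metalloproteinases (Mmp2, Mmp3, Mmp9, Mmp10, Mmp12, Mmp13 and Mmp14) and 3 inhibitors (Timp1, Timp2 and Timp3), chosen by gene symbol out of 19938 named genes on the array. Each was represented by 1 probe set.

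The RNA came from C2C12 cells, an established line of mouse myoblasts, in which Cugbp1 (now named Celf1) or Mbnl1 had been knocked down by siRNA, beside cells with a control siRNA. All groups then received 5 ug/ml actinomycin D, which blocks transcription, and total RNA was taken at 0, 2.5 or 5 h. A single array was run for every siRNA at every time, 9 in all, so that an siRNA has 3 arrays, a time has 3, and no condition has a replicate. Both targets are RNA-binding proteins that act on splicing and on the stability of mRNAs, and the series asks how their loss affects mRNA decay. The labels do not say whether the arrays came from separate cultures, so the p-values given here measure effects against the siRNA-by-time variation that an additive limma model leaves over, which may be technical. Below, a gene is said to have risen or fallen where its adjusted p was under 0.05 over all 9864 genes that passed a filter on dim signal (mean log2 intensity of at least 7.385), and values are log2 differences ± SE, where a difference of 1 is a 2-fold change.

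The siRNAs lowered their targets: Celf1 stood at 21.6% to 30.9% of control under Cugbp1 siRNA and Mbnl1 at 15.9% to 22% under Mbnl1 siRNA, and Celf1 was also at 61.5% to 72.4% under Mbnl1 siRNA. The cells carried the myoblast markers, with 9 of 12 listed genes above the filter under every siRNA, among them Myod1, Des and Cdh15. Median intensities of the 9 arrays ranged from 104.9 to 113.0. Of the 10 genes, 7 passed the filter, and Mmp12 passed it through the 3 Mbnl1 siRNA arrays alone, so its test has to be read with that in mind. Mmp3, Mmp9 and Mmp13 were under the filter value on all 9 arrays. For these 3, tests come from a fit without the filter over all 19938 genes.

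**Figure D1:**
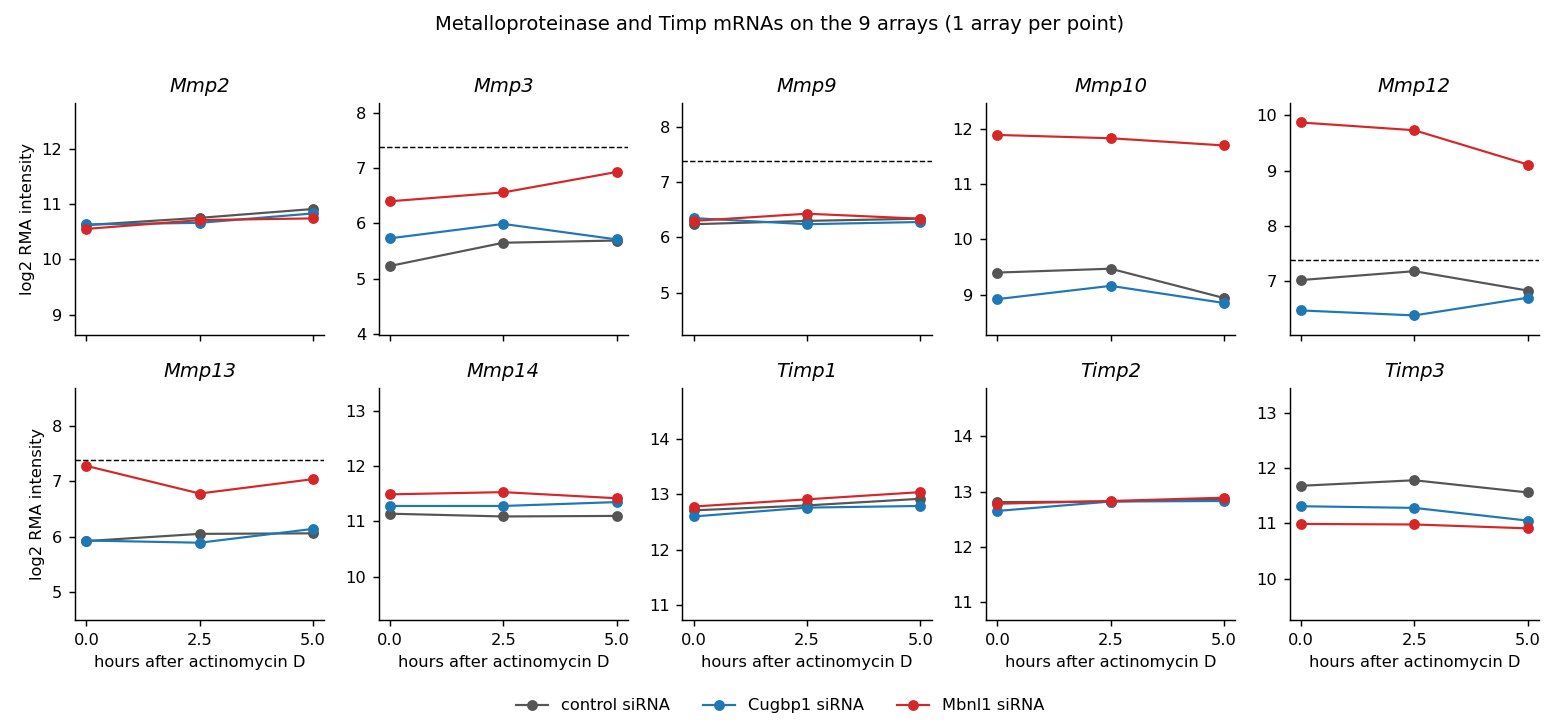
The log2 intensity of each gene (vertical axis, with the same span of 4.2 log2 units in each panel) is plotted against hours after actinomycin D, with 1 point per array and 1 line per siRNA; the dashed line marks the filter value of 7.385 where it falls in the panel. Mmp10 and Mmp12 lie far higher on the Mbnl1 siRNA arrays at all 3 times, Timp3 lies lower on both sets of knockdown arrays, and the lines of Mmp2, Mmp9 and Timp2 run close together.

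Under Mbnl1 siRNA the stromelysin Mmp10 and the metalloelastase Mmp12 were among the most increased of all named genes, the membrane-bound Mmp14 rose modestly, and the inhibitor Timp3 fell. Timp1 rose by a small amount, and Mmp2 and Timp2 did not pass the test. Of the 7 genes tested 4 rose and 1 fell, against 24% of all tested genes that rose and 31% that fell, or 5 called in either direction against a background of 55%. Their differences ran from −0.71 to 2.57. Mmp12 is 1 of the 4 and was tested only through its Mbnl1 siRNA arrays. Among the 6 members with a control mean at or above the filter, 3 rose and 1 fell, a count added after the values were seen. Without the filter 5 of the 10 rose and 1 fell, against 11.9% and 13.7% of all 19938 genes. In bulk RNA, fewer cells of a type and less RNA per cell cannot be told apart.

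Mmp10, a stromelysin that cuts proteoglycans, laminin and other matrix proteins and can activate other metalloproteinases, had intensities of 677, 710 and 492 with control siRNA at 0, 2.5 and 5 h. With Mbnl1 siRNA the values at the same times were 3788, 3651 and 3337. Every Mbnl1 siRNA array was thus above every control array, by 5.6-fold, 5.14-fold and 6.79-fold at the 3 times. The difference of 2.54 ± 0.08 (n = 3 arrays per siRNA, limma adjusted p = 1.19e-06) ranked 7th from the top among 9864 genes.

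Mmp12, the elastin-degrading metalloproteinase best known from macrophages, gave 130, 145 and 113 with control siRNA, below the filter intensity of 167.1. With Mbnl1 siRNA it gave 937, 850 and 554. All 3 arrays stood above the control arrays, and above the filter intensity itself by 5.61-fold, 5.08-fold and 3.32-fold. Measured against the dim control signal, the fitted difference over the 3 times was 2.57 ± 0.17 (n = 3 arrays per siRNA, limma adjusted p = 1.39e-05, and 7.17e-05 in the fit without the filter), 6th from the top. The ranks of Mmp10 and Mmp12 were also 7th and 6th among all 19938 named genes. Only 0.7% of tested genes rose by more than 1, the range in which Mmp10 and Mmp12 both lie.

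The other stromelysin, Mmp3, and the collagenase Mmp13, which cleaves fibrillar collagen, had dim signals that moved the same way. Mmp3 had 37.5, 50.1 and 51.5 with control siRNA and 84.7, 94.1 and 121.6 with Mbnl1 siRNA, a difference of 1.11 ± 0.12 (n = 3 arrays per siRNA, limma adjusted p = 0.000469 without the filter). Mmp13 had 60.6, 66.1 and 66.8 against 155.4, 109.7 and 131.7, a difference of 1.02 ± 0.11 (adjusted p = 0.000504). In each case the Mbnl1 siRNA arrays lay above all control arrays yet stayed under the filter value. Mmp3 and Mmp10 are close relatives in sequence, and whether Mmp10 RNA adds to the Mmp3 signal was not tested.

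Mmp14, a membrane-anchored collagenase that activates the Mmp2 precursor at the cell surface, had intensities of 2254, 2186 and 2189 with control siRNA and 2880, 2962 and 2735 with Mbnl1 siRNA. The groups did not overlap, and the difference was 0.37 ± 0.04 (n = 3 arrays per siRNA, limma adjusted p = 0.000221), or 1.29-fold. Its substrate Mmp2, a gelatinase, stayed between 1498 and 1919 on all 9 arrays and differed by −0.09 ± 0.04 (adjusted p = 0.11). The second gelatinase, Mmp9, was dim throughout, between 75.5 and 86.5, and differed by 0.06 ± 0.06 (adjusted p = 0.464 without the filter).

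Among the inhibitors, Timp3, which binds to the matrix and also inhibits Adam proteases such as Adam17, moved the other way. Its intensities were 3290, 3515 and 3019 with control siRNA and 2039, 2021 and 1930 with Mbnl1 siRNA. All 3 arrays were below the control arrays, at 62%, 57.5% and 63.9% of control, a difference of −0.71 ± 0.05 (n = 3 arrays per siRNA, limma adjusted p = 1.51e-05). Of the 7 tested members, 3 lay wholly above (Mmp10, Mmp12 and Mmp14) and 1 wholly below the control arrays. These positions were held by 14.6% and 20.3% of all tested genes. Mmp12 was tested through its Mbnl1 siRNA arrays alone, so the filter favoured its place above control.

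Timp1, a secreted inhibitor of most metalloproteinases, had 6686, 7112 and 7725 with control siRNA and 7035, 7699 and 8442 with Mbnl1 siRNA. It was higher in each of the 3 pairs, but the ranges overlapped, and the rise of 0.11 ± 0.04 (limma adjusted p = 0.0414) was lost when any of 8 of the 9 arrays was left out, all but the Cugbp1 siRNA array at 5 h, with adjusted p of 0.0535 to 0.161. It was also lost without the filter (0.118) and after the arrays were shifted to equal ribosomal protein medians (0.139). Timp2, which blocks metalloproteinases and also helps Mmp14 to activate the Mmp2 precursor, lay between 6440 and 7574 on all arrays and differed by 0.00 ± 0.04 (adjusted p = 0.996).

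**Figure D2:**
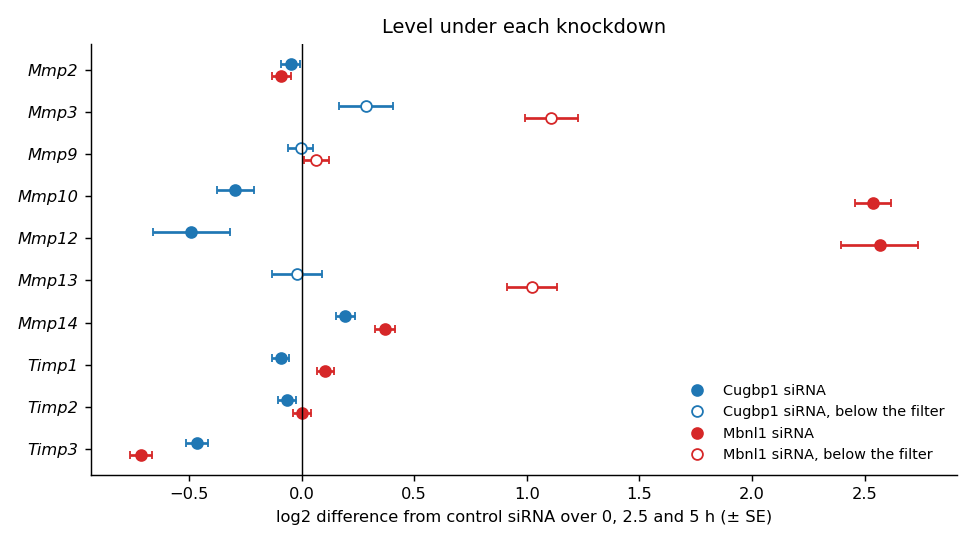
The log2 difference from control siRNA over the 3 times (horizontal axis, ± SE, n = 3 arrays per siRNA) is plotted for each gene and knockdown, with open circles for genes under the filter. Mmp10 and Mmp12 lie at 2.54 and 2.57 under Mbnl1 siRNA, while Timp3 is to the left of 0 under both knockdowns, at −0.46 and −0.71.

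Cugbp1 siRNA changed these genes less. Timp3 fell, Mmp14 rose slightly, Mmp10 fell slightly, and the other members did not pass the test. With the filter 1 of 7 rose and 2 fell, against 10.5% and 8.67% of all genes, or 3 called against a background of 19.2%. Without the filter Timp3 alone was called among the 10, against a background of 4.86%.

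Timp3 had 2538, 2485 and 2113 with Cugbp1 siRNA, below all control arrays (3019 to 3515), a difference of −0.46 ± 0.05 (n = 3 arrays per siRNA, limma adjusted p = 0.000865). The call was kept with every single array left out, with adjusted p of at most 0.0101. Mmp14 had 2488, 2495 and 2602, above all control arrays (2186 to 2254), a difference of 0.19 ± 0.04 (adjusted p = 0.0195). This call was lost without the control array at 2.5 or 5 h or the Cugbp1 siRNA array at 2.5 or 5 h (adjusted p of 0.0661 to 0.104), without the filter (0.0705) and with equal ribosomal protein medians (0.0704).

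Mmp10 had 485, 571 and 462 with Cugbp1 siRNA and was lower than control in each of the 3 pairs, at 71.7%, 80.4% and 94.1%, with overlapping ranges. The difference was −0.29 ± 0.08 (n = 3 arrays per siRNA, limma adjusted p = 0.0425). It was not called without the filter (0.114), nor without the control array at 0 or 2.5 h or any 1 of the 3 Cugbp1 siRNA arrays (0.0679 to 0.18). Mmp12 had 88.8, 83.4 and 104 against 113 to 145 in control, all under the filter intensity and without overlap. Its difference of −0.49 ± 0.17 did not pass (adjusted p = 0.0849). It passed without the Cugbp1 siRNA array at 5 h (−0.74, adjusted p = 0.00911) or the Mbnl1 siRNA array at 5 h (−0.49, 0.0251). Mmp2 (−0.05 ± 0.04), Timp1 (−0.09 ± 0.04) and Timp2 (−0.06 ± 0.04) had adjusted p of 0.48, 0.125 and 0.31, and Timp1 passed with the trended robust prior (0.0179). Of the 7 tested genes 1 lay wholly above and 2 wholly below the control arrays, as did 8.57% and 7.67% of all genes. Of the dim genes, Mmp3 differed by 0.29 ± 0.12 (0.254), Mmp13 by −0.02 ± 0.11 (0.954) and Mmp9 by 0.00 ± 0.06 (0.986).

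The knockdowns were also compared with each other. Both comparisons above share the control arrays, so their values are given side by side and not correlated. Against Cugbp1 siRNA, Mbnl1 siRNA left Mmp10 higher by 2.83 ± 0.08 (limma adjusted p = 4.56e-07) and Mmp12 by 3.06 ± 0.17 (7.11e-06), which were the 4th and 3rd largest positive differences of 9864. Mmp14 was higher by 0.18 ± 0.04 (adjusted p = 0.0091, 0.051 without the Cugbp1 siRNA array at 2.5 h and 0.0527 with equal ribosomal protein medians) and Timp1 by 0.20 ± 0.04 (0.00248). Timp3 was lower by 0.25, a difference of −0.25 ± 0.05 (0.00288), so that its order over the siRNAs, control, then Cugbp1, then Mbnl1, was separated at each step. For Mmp14 the order ran the other way, from control through Cugbp1 to Mbnl1. Mmp2 (−0.04 ± 0.04, 0.439) and Timp2 (0.06 ± 0.04, 0.208) did not pass. Of the 7 genes 4 rose and 1 fell in this comparison, against 23% and 33.4% of all genes (56.4% in either direction). Among the 6 with a control mean at or above the filter, which leaves out Mmp12, 3 rose and 1 fell. Without the filter Mmp3 was higher by 0.82 ± 0.12 (limma adjusted p = 0.00184) and Mmp13 by 1.04 ± 0.11 (0.000466), where 11.7% of all genes rose, and Mmp9 differed by 0.07 ± 0.06 (0.434).

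The 4 metalloproteinases that were higher under Mbnl1 siRNA by more than 1, Mmp3, Mmp10, Mmp12 and Mmp13, belong to a cluster of 10 metalloproteinase genes on mouse chromosome 9 in the RefSeq gene order (assembly GRCm38.p6). The order along the chromosome is Mmp13, Mmp12, Mmp1b, Mmp3, Mmp1a, Mmp10, Mmp8, Mmp27, Mmp20 and Mmp7. This comparison was chosen after the values were seen, and it uses the fit without the filter. The 6 remaining cluster genes stayed dim, with no array above a log2 intensity of 6.09, and differed from control by 0.00 to 0.15 under Mbnl1 siRNA, none of them called. Mmp1b and Mmp1a, which lie between the 4 responding genes, had adjusted p of 0.519 and 0.988.

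The genes that flank the cluster did not share the rise. Dcun1d5, next to Mmp13, was at a log2 intensity of 9.63 with control and 9.54 with Mbnl1 siRNA (−0.09 ± 0.06, adjusted p = 0.339). On the other side, Tmem123, next to Mmp7, went down by 0.23 (−0.23 ± 0.05, 0.00915) under Mbnl1 siRNA and by −1.05 ± 0.05 (0.000175) under Cugbp1 siRNA. Beyond it, Birc2 (−0.15 ± 0.07), Birc3 (0.04 ± 0.06) and Yap1 (−0.05 ± 0.05) did not pass the test under Mbnl1 siRNA.

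**Figure D3:**
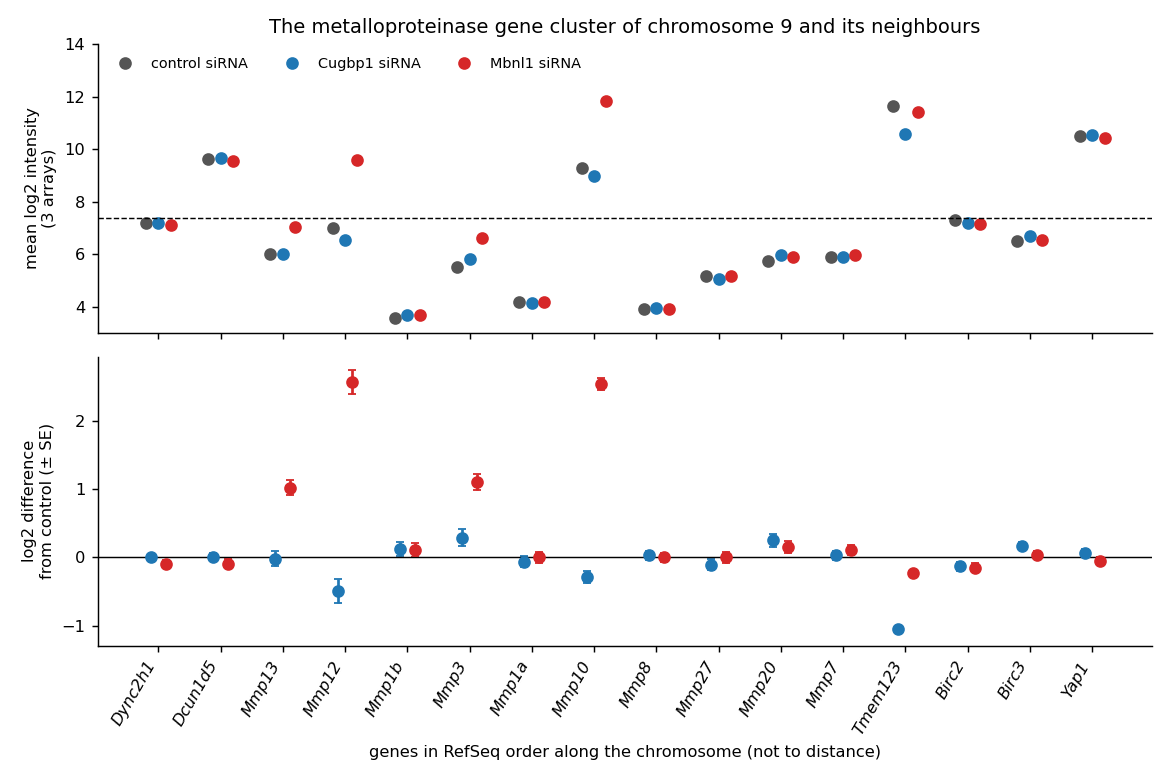
Genes are placed in chromosome order (horizontal axis, not to distance); the upper panel gives the mean log2 intensity of 3 arrays per siRNA with the filter value dashed, and the lower panel the log2 difference from control siRNA ± SE. Mmp13, Mmp12, Mmp3 and Mmp10 rise under Mbnl1 siRNA while the other metalloproteinase genes of the cluster stay at 0.00 to 0.15, and Tmem123 is lower under Cugbp1 siRNA.

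The sequences before the transcript starts of these 4 genes are shown because the genes moved together. RefSeq promoter windows (GRCm38.p6, 250 bases before to 50 after the start) were at hand for 8 of the 10 members, with 9 windows in all. They were searched on both strands for TGANTCA, the site letters of AP-1 (dimers of Fos and Jun proteins, long known to drive metalloproteinase genes), and for TATAAA, the core of a TATA box. These letter strings do not overlap one another. The 250 bases before the start follow, 5′ to 3′ on the plus strand, with matches to either string in capitals.
Mmp13, chr9:7272264-7272513: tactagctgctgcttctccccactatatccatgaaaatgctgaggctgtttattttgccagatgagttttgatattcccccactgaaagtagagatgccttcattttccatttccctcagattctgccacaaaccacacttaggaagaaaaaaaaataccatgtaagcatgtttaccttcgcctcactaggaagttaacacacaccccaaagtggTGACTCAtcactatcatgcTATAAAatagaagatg
Mmp12, chr9:7347124-7347373: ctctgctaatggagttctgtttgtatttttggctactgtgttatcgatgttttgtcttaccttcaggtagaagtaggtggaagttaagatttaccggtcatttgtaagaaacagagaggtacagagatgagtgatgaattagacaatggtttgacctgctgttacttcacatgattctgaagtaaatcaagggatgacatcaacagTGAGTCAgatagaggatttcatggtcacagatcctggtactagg
Mmp3, chr9:7445572-7445821: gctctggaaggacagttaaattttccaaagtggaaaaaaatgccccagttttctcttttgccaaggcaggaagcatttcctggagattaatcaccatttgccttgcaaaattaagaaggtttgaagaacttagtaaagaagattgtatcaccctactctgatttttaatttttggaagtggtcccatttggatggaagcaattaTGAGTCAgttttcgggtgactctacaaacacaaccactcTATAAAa
Mmp10, chr9:7502092-7502341: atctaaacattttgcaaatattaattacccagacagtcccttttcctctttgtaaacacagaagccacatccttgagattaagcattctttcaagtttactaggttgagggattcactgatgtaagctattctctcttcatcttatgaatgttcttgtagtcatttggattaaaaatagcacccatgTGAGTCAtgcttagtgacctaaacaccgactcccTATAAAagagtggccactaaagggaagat

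Each of the 4 windows holds 1 match to TGANTCA, which begins 35 bases before the start in Mmp13, 44 in Mmp12, 46 in Mmp3 and 63 in Mmp10. In Mmp12 this is the second of 2 windows; the first, at the more upstream start, has no match to either string. Each window also holds 1 TATAAA, at 16 bases before the start in Mmp13, 7 in Mmp3 and 29 in Mmp10, and in Mmp12 just after the start, at base 5 of the transcript. Over all 32851 windows of the same 300 bases, 7.8% hold TGANTCA and 13.6% hold TATAAA. The windows of Mmp14, Timp1, Timp2 and Timp3 hold neither string, and those of Mmp2 and Mmp9 were not analysed here. The match does not separate responding from other cluster genes: of the 6 that were not called, 4 (Mmp1b, Mmp1a, Mmp20 and Mmp7) hold TGANTCA too, and 5 hold TATAAA. A match in letters is a description of the sequence and not a measured binding site.

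Because Timp3 fell under both knockdowns, its window is shown for comparison, as the 250 bases before the start on the plus strand, with no match to either string.
Timp3, chr10:86300162-86300411: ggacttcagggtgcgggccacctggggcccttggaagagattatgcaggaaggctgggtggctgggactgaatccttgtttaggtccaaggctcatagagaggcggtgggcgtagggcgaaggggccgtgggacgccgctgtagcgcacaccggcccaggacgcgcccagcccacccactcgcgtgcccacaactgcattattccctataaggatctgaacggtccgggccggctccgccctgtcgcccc

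Over 5 h after transcription was blocked, the 7 tested genes differed by −0.24 to 0.23 averaged over the arms, compared with −1.57 ± 0.07 for the short-lived mRNA of Jun. Single arms moved further, with Mmp12 at 59.2% of its 0 h signal under Mbnl1 siRNA and Mmp10 at 72.6% under control siRNA. RMA sets all arrays to a common distribution, so these values are relative to the other transcripts and are not amounts. At 5 h Mmp2, Timp1 and Timp2 rose and Mmp10 and Timp3 fell. These are 3 and 2 of 7 genes tested, against 35.6% of all genes that rose and 32.8% that fell, or 68.4% in all. At 2.5 h Timp1 was the only one of the 7 called, against 23.1% of all genes that rose and 47.4% called in either direction.

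Between 0 and 5 h Mmp2 went from 1568 to 1919 in the control arm, 1590 to 1821 in the Cugbp1 arm and 1498 to 1710 in the Mbnl1 arm. The change was 0.23 ± 0.04 (n = 3 arrays per time, limma adjusted p = 0.00209), and with equal ribosomal protein medians it was 0.00 (adjusted p = 0.981). Timp1 stood at 115.5%, 113.9% and 120% of its 0 h signal in the 3 arms, a rise of 0.22 ± 0.04 (0.00111), which that shift turned to −0.01 (0.912). At 2.5 h Timp1 had risen by 0.13 ± 0.04 (0.0248), or by 0.01 (0.901) after the shift. Its call at 2.5 h was lost without the control array at 2.5 h, the Cugbp1 siRNA array at 0 or 2.5 h or the Mbnl1 siRNA array at 0 or 2.5 h (0.058 to 0.125), and without the filter (0.0753). Timp2 rose by 0.12 ± 0.04 at 5 h (0.0323), which the shift turned to −0.11 (0.122); the call was also lost without the control array at 5 h, or either the 0 or the 5 h array of a knockdown (0.0586 to 0.136), with quantile normalization (0.273) and without the filter (0.0797). The shift moved the median of all genes from 0.035 to −0.193 at 5 h and from 0.033 to −0.08 at 2.5 h, and the share of calls that were rises from 52.1% to 4.1% and from 48.8% to 4.5%. These rises are thus relative to the average transcript and not to ribosomal protein mRNAs. Quantile normalization gave shares of 59% and 59.2%.

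Timp3 fell by 0.16 at 5 h (−0.16 ± 0.05, n = 3 arrays per time, limma adjusted p = 0.02), to 91.7% (control), 83.3% (Cugbp1) and 94.7% (Mbnl1) of its 0 h signal. This call was lost without the control array at 5 h or the Cugbp1 siRNA array at 0 or 5 h (adjusted p of 0.0632 to 0.0906) and, narrowly, without the filter (0.051). Mmp10 fell by 0.24 (−0.24 ± 0.08, 0.0316), to 72.6%, 95.2% and 88.1% in the same order of arms. It was not called without the control array at 0 h (−0.18, 0.14) or at 5 h (−0.13, 0.129), without the Mbnl1 siRNA array at 0 h (−0.22, 0.0912), with quantile normalization (0.117) or without the filter (0.0643). Mmp14 ended at 97.1%, 104.6% and 95% and differed by −0.02 ± 0.04 (0.733), although with equal ribosomal protein medians it fell by 0.246 (0.00615). Mmp12 differed by −0.24 ± 0.17 (0.234) at 5 h, and by −0.47 (0.0153) after that shift or −0.49 (0.00742) without the Cugbp1 siRNA array at 5 h. Among the dim genes, Mmp3 differed by 0.32 ± 0.12 (0.069 without the filter), or 0.485 (0.00579) when the Cugbp1 siRNA array at 5 h was left out, and Mmp13 and Mmp9 by 0.04 ± 0.11 and 0.03 ± 0.06 (0.813 and 0.723).

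**Figure D4:**
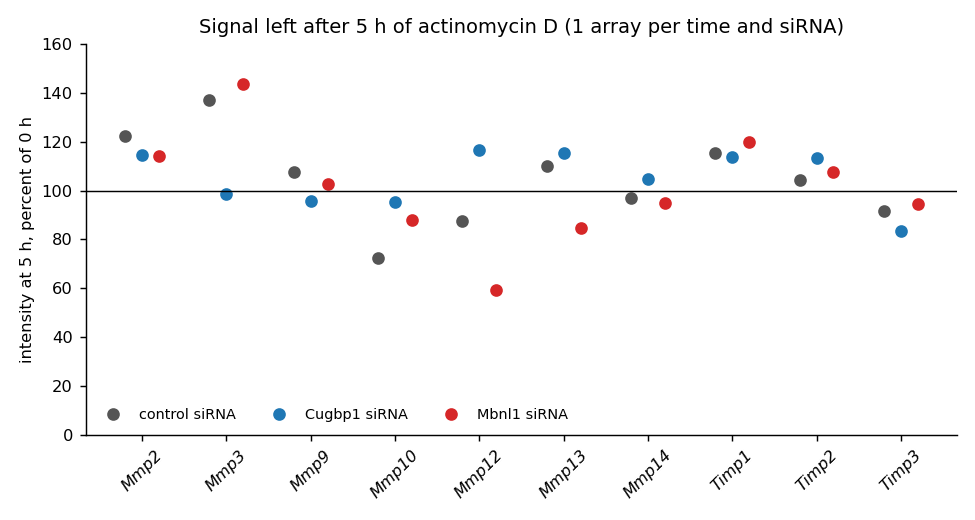
The intensity at 5 h as a percentage of that at 0 h (vertical axis) is given for each gene and siRNA, from 1 array per time and siRNA with no error bar. Points lie between 83.3% and 122.3% except for Mmp10 under control siRNA (72.6%), Mmp12 under Mbnl1 siRNA (59.2%) and the dim Mmp3 under control and Mbnl1 siRNA (137.2% and 143.6%).

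The question of the series is whether loss of either protein alters decay, which was tested as a difference in hourly slope of log2 intensity from that under control siRNA. None of the 7 tested members passed limma's test for either knockdown. With an unadjusted p under 0.05 there was 1 for Cugbp1 siRNA and 0 for Mbnl1 siRNA. The background was 0% of genes called for Cugbp1 siRNA and 0.0203% for Mbnl1 siRNA, with 1129 and 1361 genes at an unadjusted p under 0.05. The test has 2 residual degrees of freedom. On simulated data with 200 changed genes, the Mbnl1 siRNA test recovered 0 at a slope difference of 0.1 per h and 178 at 0.2 per h. Each setting was drawn once, with noise set from the prior of the level fit, so recovery in the real data can differ. A lack of calls is thus no measure of equal decay. Mmp10 lost signal under control siRNA (72.6% left) and less under Cugbp1 siRNA (95.2% left), a slope difference of 0.078 ± 0.030 per h (adjusted p = 0.415).

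Under Mbnl1 siRNA the raised signal of Mmp12 declined from 937 to 554, or 59.2% left, against 87.5% under control siRNA, where its signal was under the filter intensity. The slope difference of −0.113 ± 0.050 per h did not pass (adjusted p = 0.39), but with equal ribosomal protein medians it was −0.141 and did (0.00186; 3.17% of genes were then called). For Timp3, the slopes differed by −0.028 ± 0.020 per h under Cugbp1 siRNA and 0.009 ± 0.020 under Mbnl1 siRNA (0.632 and 0.888). Its deficit was present at 0 h, at 77.1% and 62% of control, before transcription was blocked. The same holds for the surplus of Mmp10 and Mmp12 under Mbnl1 siRNA, with Mmp10 5.6-fold over control and Mmp12 5.61-fold over the filter intensity at 0 h. The part of synthesis and of decay in these 0 h levels was not tested.

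The plasminogen system makes plasmin, which can activate metalloproteinase precursors, and the genes listed with it that passed the filter rose under Mbnl1 siRNA. Among plasminogen activators, their receptor and inhibitors and related serine proteases, 6 of the 13 listed genes were tested and all 6 rose, at a median of 0.64, against −0.021 and 24% risen over all genes. Plat, which encodes tissue plasminogen activator, rose by 1.13 ± 0.04 (limma adjusted p = 1.59e-06). The kallikrein Klk6 rose by 3.59 ± 0.06 (5.23e-08); like Mmp12 it passed the filter through its Mbnl1 siRNA arrays, and it was put on the list with its rise already known. Without Klk6, 5 of 5 rose at a median of 0.628, and without the filter 7 of the 11 list genes on the array rose and 0 fell, at a median of 0.395. Both of these counts were added after the values were seen. Under Cugbp1 siRNA 4 of these 6 fell and 0 rose, against 8.67% and 10.5% of all genes, with Plau, the urokinase gene, at −0.51 ± 0.05 (0.000921) and Klk10 at −0.32 ± 0.05 (0.00445).

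Genes that activate or hold metalloproteinases at the surface were split under Mbnl1 siRNA, with 5 of 13 tested higher (38.5%, against 24% of all genes) and 4 lower (30.8%, against 31%). Thbs1, a thrombospondin (0.81 ± 0.04, limma adjusted p = 5e-06), and Itgb3, an integrin subunit (0.60 ± 0.04, 1.41e-05), rose. Reck, a membrane-anchored inhibitor of metalloproteinases, fell by 0.59 (−0.59 ± 0.05, 5.67e-05), as did the caveolin Cav1 (−0.54 ± 0.05, 4.18e-05). Under Cugbp1 siRNA 1 of the 13 was called, Itgb3 at −0.25 ± 0.04 (0.00557), where 19.2% of all genes were called. At 5 h 6 rose and 1 fell relative to the average transcript, against 35.6% and 32.8% of all genes.

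Of the ADAM and ADAMTS proteases 5 of 13 rose and 5 fell under Mbnl1 siRNA, against 24% and 31% of all genes, led by the aggrecanase Adamts4 (0.64 ± 0.08, limma adjusted p = 0.000303) and by Adam8 (−0.79 ± 0.09, 0.000225). Under Cugbp1 siRNA 1 rose and 5 fell, against 10.5% and 8.67%, the largest fall being that of Adamts6 (−0.57 ± 0.08, 0.00284). At 5 h 9 of the 13 rose and 3 fell, at a median of 0.188, against 35.6% and 32.8% of all genes and a median of 0.035. These 5 h values are relative to the average transcript, and the list was not refitted with equal ribosomal protein medians. That shift moved the median of all genes to −0.193 at 5 h. Adamts10 rose by 0.47 ± 0.04 (limma adjusted p = 4.55e-05) and Adamts1 fell by 1.76 (−1.76 ± 0.06, 3.28e-07). Of 22 matrix proteins that such enzymes cut, 5 rose and 7 fell under Mbnl1 siRNA (median 0.002), close to the 24% and 31% of all genes. The proteoglycan Dcn rose by 1.14 ± 0.05 (3.95e-06) and the matrix protein Tnc fell by 0.66 (−0.66 ± 0.04, 7.26e-06). Under Cugbp1 siRNA 6 rose and 4 fell, against 10.5% and 8.67% of all genes.

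Genes listed as regulators of metalloproteinase promoters moved in both directions under Mbnl1 siRNA, in shares close to those of all genes. They are AP-1, ETS and NF-kappaB factors together with Runx1, Cebpb and Nfkbia, an inhibitor of NF-kappaB. Of the 16 tested, 4 rose and 4 fell (25% each, median −0.03), against 24% and 31% of all genes. The stress-induced factor Atf3 rose by 0.73 ± 0.07 (limma adjusted p = 8.79e-05), as did Etv1 (0.32), Fosl2 (0.25 ± 0.08, 0.0321) and Ets1 (0.11). Ets2 (−0.32), Runx1 (−0.31), Etv5 (−0.2) and Rela (−0.2) fell. Jun stood at 0.03 ± 0.07 (0.706) and Fosl1 at 0.08 ± 0.06 (0.322), and neither was called. At 5 h after actinomycin D 12 of the 16 had fallen and 2 had risen, at a median of −0.621, against 32.8% and 35.6% of all genes.

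**Figure D5:**
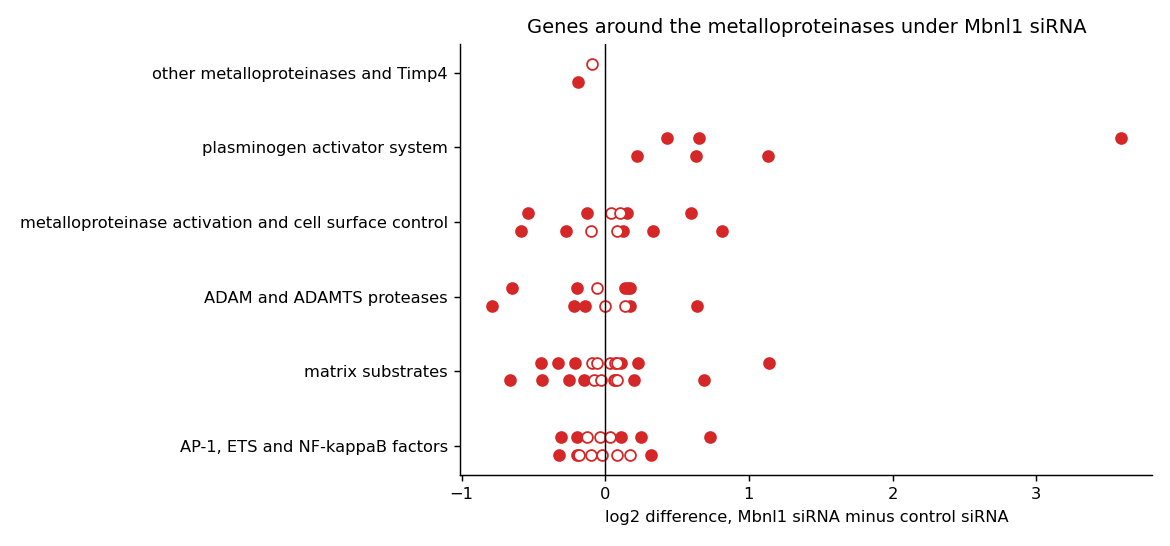
Each circle is a tested gene of a list, at its log2 difference between Mbnl1 siRNA and control siRNA (horizontal axis, n = 3 arrays per siRNA), filled where the adjusted p was under 0.05 and open elsewhere. All 6 genes of the plasminogen activator list lie right of 0. The farthest, Klk6 at 3.59, passed the filter through its Mbnl1 siRNA arrays and was listed with its rise known. Mmp11 and Mmp28, the 2 tested genes of the other metalloproteinases, lie left of 0, and the remaining lists spread to both sides.

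The rest of the metalloproteinase family was mostly dim. Of the 17 further family genes listed, Timp4 among them, 16 were on the array with 1 symbol and 13 of these stayed under the filter on every array. Mmp11 and Mmp28 passed it. Mmp11 fell by 0.19 under Mbnl1 siRNA (−0.19 ± 0.07, limma adjusted p = 0.049, and 0.109 without the filter), and Mmp28 fell by 0.26 at 5 h (−0.26 ± 0.05, 0.00307). In the fit without the filter the only family gene called under Mbnl1 siRNA beyond the 10 was Mmp19, which was lower (−0.76 ± 0.06, 8.65e-05). Its mean log2 intensity of 6.96 was under the filter. In the same fit Mmp19 was higher under Cugbp1 siRNA (0.35, limma adjusted p = 0.0145) and lower at 5 h (−0.34, 0.00239).

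The genes whose log2 values followed each member most closely over the 9 arrays were taken as the 3 with the highest Pearson correlation among 9864. For Mmp10 they were Pappa (0.997), Il1rn (0.994) and Sema3d (0.992), and for Mmp12 they were Robo2 (0.99), Pdlim3 (0.987) and Mmp10 itself (0.985). Pappa, a secreted metalloproteinase of another family, was 1.17 higher under Mbnl1 siRNA. Mmp14 went with Npc1 (0.983), Trim55 (0.981) and Pip5k1b (0.981). Timp3 was closest to Tnc (0.989), followed by Slc30a4 (0.971) and Rbms1 (0.968). Tnc differed from control by −0.45 under Cugbp1 siRNA and −0.66 under Mbnl1 siRNA, against −0.46 and −0.71 for Timp3. For Mmp2, Timp1 and Timp2 the closest genes were 9130401M01Rik (0.979), Asah1 (0.986) and Tpd52 (0.982). The 9 arrays share the same siRNA and time effects, so a high correlation is a description of these arrays.

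Mmp12 and Mmp9 are made by macrophages, and several of these genes by epithelium, so the markers of other cell types are given beside them. Of 12 macrophage and leukocyte markers 2 were above the filter, Cd68 and Cd14, while Ptprc, Adgre1, Csf1r and Itgam had mean log2 intensities of 5.64, 5.35, 6.20 and 5.53 under Mbnl1 siRNA, with adjusted p of at least 0.347 against control without the filter. The summed intensity of the list was 1091 to 1127 with control siRNA, 1082 to 1193 for Cugbp1 and 1420 to 1677 for Mbnl1 knockdown. Cd68, a lysosomal glycoprotein, was higher by 1.15 ± 0.04, while Cd14 differed by −0.13 ± 0.07 and was not called. Of the other markers under the filter value, Lyz2 differed by 0.2 ± 0.07 (limma adjusted p = 0.0575 without the filter) and Ctss by −0.17 ± 0.08 (0.168). Tyrobp, Fcer1g, Aif1 and Mpeg1 differed by −0.05 to 0.1 and were not called. The epithelial list, with 4 or 5 of 12 genes above the filter, had sums of 3006 to 3201, 2900 to 3090 and 5330 to 5957. Krt8 was higher by 2.69 ± 0.05 and Cdh1 by 1.26 ± 0.06 under Mbnl1 siRNA. Krt19 (−0.1), Krt14 (−0.11) and Cldn3 (0.05) also passed the filter and were not called. Of the genes under the filter value, Krt18 was higher by 0.34 ± 0.09 (limma adjusted p = 0.022 without the filter). Epcam, Grhl2 and Esrp1, also under the filter value, differed by 0.05 to 0.11. Sums for the osteoblast and chondrocyte list (3 of 9 genes above the filter; 1947 to 3611, 1949 to 3385 and 1862 to 3719) and for the fibroblast list (6 of 12; 14232 to 15363, 14630 to 14756 and 13402 to 14393) overlapped between control and Mbnl1 siRNA. Within the fibroblast list Dcn rose by 1.14 under Mbnl1 siRNA, while Pdgfrb (−1.20), Col1a1 (−0.45) and Pdgfra (−0.24) fell. Dpt (−0.79) and Fap (−0.18), both under the filter value, were also called lower in the fit without the filter. The myoblast list had sums of 30007 to 30453, 29620 to 30801 and 28518 to 29029, and under Mbnl1 siRNA 3 of its 9 tested genes fell, Myod1 and Cdh15 (each −0.58) and Musk (−0.21), and 1 rose, Chrna1 (0.14). Myf5, Des, Itga7, Dag1 and Pax7 lay between −0.13 and 0.03 and were not called. Of the myoblast genes under the filter value, Myf6 was lower (−0.31, limma adjusted p = 0.00582 without the filter), and Myog and Cav3 were not called. The part of such cells, or of a shift in the state of the myoblasts, in the changes above was not tested.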

How the data were processed

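Biotin-labelled target from 9 total RNA samples of C2C12 cells was hybridised to Affymetrix arrays that read whole transcripts, per the labels' protocols. The deposited values are RMA intensity made by the authors in Affymetrix Expression Console, per the submitters' processing notes, with versions not given in the sources used here. That the scale is linear was read from the values, and log2 was taken here. Of 35556 probe sets, 21789 had 1 gene symbol, 1621 several and 12146 none in GEO's platform annotation. Kept were probe sets with 1 symbol whose mean log2 reached 7.385, the 50th percentile, and the brightest per gene. R 4.3.3 with limma 3.58.1 tested levels and times (siRNA and time as factors, 4 residual degrees of freedom) and decay with a line in hours added per knockdown (2 residual degrees of freedom), with Benjamini-Hochberg adjustment over 9864 genes. The fits were tested on simulated data. The ribosomal protein shift set the median of 53 such genes equal on all arrays. Other alternatives were no filter, a filter at the 75th percentile, the mean of a gene's probe sets, quantile normalization, a trended robust prior, 0 h or 0 to 5 h values alone, and leaving out each array. The number of arrays limits the precision. Members, gene lists, tests and most alternatives were chosen with earlier results of these data known. Named genes are all members in every comparison, the siRNA targets and the 3 most correlated genes. Also named are the 2 largest called changes per list and direction, of which some are given here. Jun, Fosl1, Fosl2, Ets1, Etv5 and Rela, the cluster and its neighbours, Mmp19 and marker genes were added after their values were seen. Promoter windows came from RefSeq. Protein sequences were not used here.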

Additional observations from a re-analysis of the deposited data

How the results depend on the processing

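Both the sharp rise of Mmp10 and Mmp12 and the fall of Timp3 under Mbnl1 siRNA kept their direction and their call under every alternative fit that tested them (the stricter filter left out Mmp12) and with any array left out, as did the fall of Timp3 under Cugbp1 siRNA. Counts of called members were less stable. Under Cugbp1 siRNA 0 members rose with equal ribosomal protein medians or without the filter and 1 fell without the filter, Timp1 was called lower with the trended robust prior, and leaving out single arrays gave 0 to 1 risen and 1 to 3 fallen. At 2.5 h the number risen was 2 with the stricter filter, 3 with the trended robust prior, and 0 without the filter or with equal ribosomal protein medians, and 0 to 1 with single arrays left out. At 5 h equal ribosomal protein medians gave 0 risen and 4 fallen and turned Mmp2 to −0.002, Timp1 to −0.009 and Timp2 to −0.112. The number fallen at 5 h was 1 with quantile normalization, 0 without the filter and 0 to 2 with single arrays left out. For decay under Mbnl1 siRNA, 1 member fell with equal ribosomal protein medians. Leaving out the filter adds dim genes, which raises the number of tests and also changes the limma variance estimates. For Mmp14 under Cugbp1 siRNA the unadjusted limma p went from 0.00215 to 0.0044. Why calls changed under this or any other alternative was not tested. For single members, alternatives that left out no array gave 382 values that held, 13 that lost a call, 8 that gained one, 15 untested values that moved beyond the residual spread and 3 called values that changed sign. Time is a factor of the fit, so arrays were compared within times; the labels carry no replicate numbers for any other pairing. With 1 array per condition, siRNA effects on levels that differ between times count as residual variation, and signals under the filter intensity of 167.1 limit what can be said of Mmp3, Mmp9 and Mmp13.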
